A study of Ovis aries with 24 samples.

Results

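Genes of the smooth muscle contractile machinery and the cytoplasmic actins were followed before and after birth in 2 neighbouring vessels of sheep, the ductus arteriosus and the ascending aorta. The set holds 6 genes, CNN1, MYLK, MYL6, PPP1R12A, ACTB and ACTG1, chosen by name: a probe belonged to it when the array's gene name or description named 1 of these genes. They are 6 of 838 genes with a symbol here, and have 12 of the array's 15008 probes: 1 each for CNN1 and MYL6, 2 each for MYLK, PPP1R12A and ACTG1, and 4 for ACTB. Each gene was represented by its probe with the highest mean signal, and the other probes were read beside it. All 12 passed the filter for tested probes, which asked for a signal well above background on at least 4 of 24 arrays, and 10 of them were well above background in every spot that was not marked faulty.

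Smooth muscle shortens when calcium bound to calmodulin activates myosin light chain kinase (MYLK), which phosphorylates the regulatory light chain of myosin and lets myosin pull on actin. Myosin phosphatase removes that phosphate, and its targeting subunit PPP1R12A brings the enzyme to myosin, so kinase and phosphatase together set the tone of the vessel. MYL6 is the essential light chain of smooth muscle and non-muscle myosin, CNN1 (calponin 1) binds actin filaments and marks differentiated smooth muscle, and ACTB and ACTG1 are the cytoplasmic actins found in most cells. The ductus arteriosus carries blood past the lungs in the fetus and closes by contraction of this muscle after birth.

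Total RNA came from segments of the ductus and of the aorta next to it, and each sample was read on its own single-colour array. The 6 groups had 4 arrays each: preterm fetal ductus and aorta at 97 days of gestation (100 in the sample titles), near-term fetal ductus and aorta at 136 ± 0.8 days (140 in the titles; term is 145), and ductus and aorta of newborn lambs 12 hours old. No genotype or treatment separates the groups; ewes and newborn lambs were killed with pentobarbital and phenytoin, per the series' design text. The design text gives 4 animals per group and does not say that a ductus and an aorta of the same number came from 1 animal, so p-values measure the spread between these samples. The samples are whole vessel segments, in which fewer cells of a type and less RNA per cell cannot be told apart.

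All arrays of a stage lay on 1 slide, with the ductus in its first column and the aorta in its second, so effects of the slide cannot be told apart from those of stage, nor effects of the slide's column from those of vessel. Between 66.2 and 94.4% of spots per array were well above background, and 2 to 124 spots per array were marked faulty and left out. A detection limit that the scanner software computes from spiked-in RNA was above 1.5 on 12 arrays (3 of 4 in the preterm and near-term aorta, 2 of 4 in the newborn aorta and in the preterm and near-term ductus, 0 of 4 in the newborn ductus), and the first principal component, with 65.7% of the variance, separated these arrays from the others. Of 8 markers of smooth muscle sought by name, among them ACTA2, MYH11 and TAGLN, 1 had a named probe here, CNN1, and its signal was well above background on the 23 arrays where its spot was kept. Levels below are log2 processed signals relative to the 75th percentile of the same array. Levels of different probes are not compared with each other, and a difference between groups is in log2 units with its standard error from limma.

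CNN1 had its lowest levels in the preterm aorta and its highest in the newborn aorta and the near-term and newborn ductus. In the preterm aorta the arrays read 5.16, 5.02, 4.99 and 4.79 (replicates 1 to 4), and in the near-term aorta 5.26, 5.23 and 5.42 (replicates 1, 2 and 4). In the newborn aorta they read 6.41, 6.31, 6.23 and 5.57. The newborn aorta therefore lay above every fetal aorta array, with its replicate 4 well below its other 3. The spot of near-term aorta replicate 3 was marked faulty and left out of these values; kept, it would read 5.08. In the ductus the arrays read 5.53, 5.70, 5.65 and 5.40 preterm, 5.73, 6.22, 6.28 and 6.26 near term, and 5.90, 6.35, 6.29 and 5.54 in the newborn. The near-term ductus lay above the preterm ductus on all arrays, while the newborn ductus overlapped both. In the order of group means, from 6.13 in the newborn aorta to 4.99 in the preterm aorta, 4 of 5 neighbouring groups overlapped; the exception was the near-term aorta against the preterm aorta, and the faulty spot, if kept, would make them overlap as well.

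MYLK was highest in the near-term ductus. Its arrays there read 5.95, 5.92, 6.30 and 6.90, against 5.20, 5.19, 5.29 and 1.90 in the preterm ductus and 5.22, 5.32, 6.06 and 5.27 in the newborn ductus. In the aorta they read 4.91, 4.56, 4.75 and 4.08 preterm, 6.06, 5.02, 5.44 and 5.39 near term, and 5.98, 5.90, 5.63 and 4.19 in the newborn. Every near-term array thus lay above every preterm array of the same vessel, and 1 preterm ductus array, replicate 4, lay far below all others. The second MYLK probe gave the same picture, with 4.68, 4.37, 4.54 and 0.64 in the preterm ductus, and its correlation with the first over 24 arrays was 0.98. In the order of the 6 group means all 5 neighbouring pairs overlapped.

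PPP1R12A was a dimmer signal with a wide spread. In the preterm ductus it read -0.40, -0.10, -0.48 and -3.59, so that the same array, replicate 4, stood apart. The near-term ductus arrays read 0.42, 0.11, 0.16 and -0.23, all above the newborn ductus at -1.36, -1.02, -0.35 and -0.77. In the aorta the arrays ran from -1.68 to -0.21 preterm, from -1.34 to 0.36 near term and from -2.02 to 0.01 in the newborn, so the stages overlapped. The second PPP1R12A probe read -1.57, -1.12, -1.71 and -5.00 in the preterm ductus, and the 2 probes correlated at 0.86. A further probe, described on the array as the M130 myosin-binding subunit of protein phosphatase and not counted in the set, read 0.41, 0.73, 0.78 and -2.01 there and correlated with the PPP1R12A probes at 0.83 and 0.89. All 5 neighbouring pairs of group means overlapped for PPP1R12A.

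MYL6, the essential light chain, had the smallest spread among the 4 contractile genes. Group means ran from 6.96 ± 0.34 (SD, n = 4) in the preterm aorta to 7.68 ± 0.29 (SD, n = 4) in the newborn aorta, and single arrays from 6.46 to 7.99. The near-term arrays, 7.23 to 7.79 in the aorta and 7.35 to 7.96 in the ductus, lay above the preterm arrays of the same vessel, 6.46 to 7.20 and 7.17 to 7.33. The newborn ductus, 7.20 to 7.65, overlapped the preterm and the near-term ductus.

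**Figure D1:**
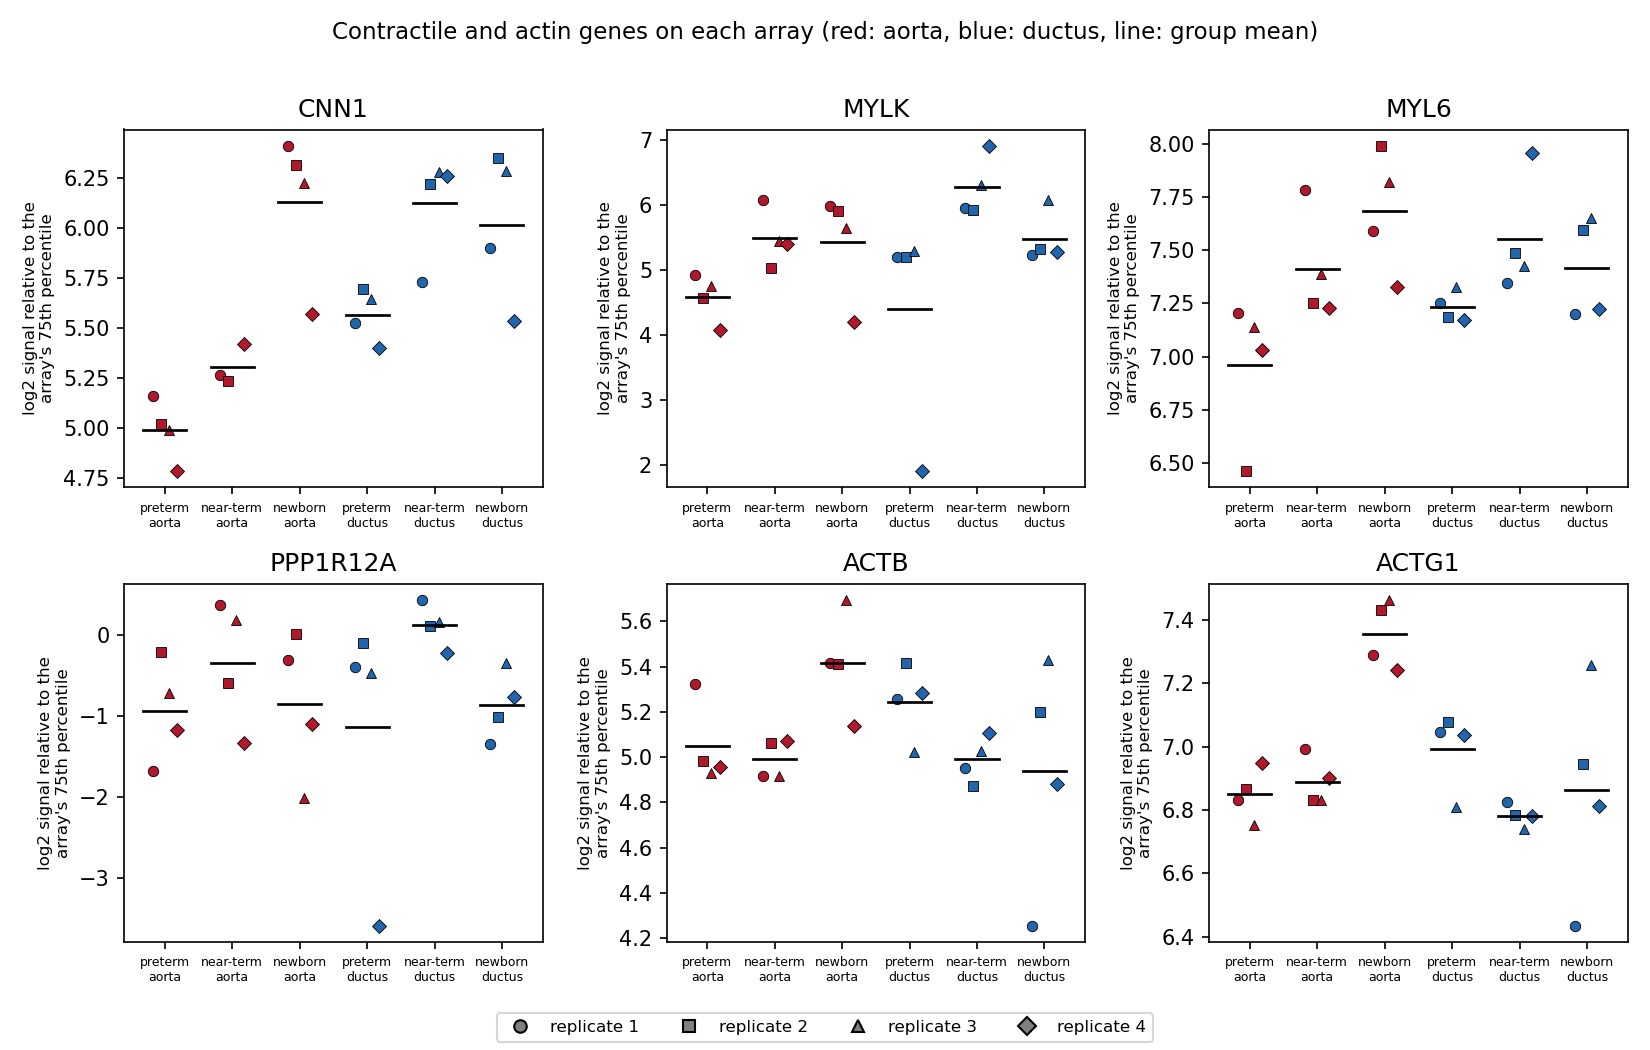
Log2 signal relative to the array's 75th percentile (vertical axis) of the representative probe of each of the 6 genes in the 6 groups (horizontal axis); points are arrays, marker shapes replicate numbers and lines group means, and the faulty CNN1 spot of near-term aorta replicate 3 is not drawn. Preterm ductus replicate 4 lies far below its group for MYLK (1.90) and PPP1R12A (-3.59) but not for the other 4 genes, and all newborn aorta arrays lie above the near-term aorta for CNN1, ACTB and ACTG1.

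ACTG1 was highest in the newborn aorta. There its arrays read 7.29, 7.43, 7.46 and 7.24, against 6.99, 6.83, 6.83 and 6.90 in the near-term aorta and 6.83, 6.87, 6.75 and 6.95 in the preterm aorta. The newborn aorta lay above all fetal aorta arrays and the 2 fetal groups overlapped. In the ductus the arrays read 7.05, 7.08, 6.81 and 7.04 preterm, 6.82, 6.78, 6.74 and 6.78 near term, and 6.43, 6.95, 7.26 and 6.81 in the newborn. The newborn ductus was the most variable group (SD 0.34, against 0.03 to 0.12 in the other 5), because its replicates 1 and 3 lay at opposite ends. The second ACTG1 probe read 6.01, 5.94, 6.21 and 5.56 in the newborn aorta and 5.31, 5.22, 5.58 and 5.08 in the newborn ductus, and the 2 probes correlated at 0.81. The newborn aorta was separated from the next group in the order of means, the preterm ductus, and the other 4 neighbouring pairs overlapped.

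ACTB followed ACTG1 on its brightest probe. It read 5.41, 5.41, 5.69 and 5.14 in the newborn aorta, above the near-term aorta at 4.92, 5.06, 4.92 and 5.07. In the newborn ductus it read 4.26, 5.20, 5.43 and 4.88, with replicates 1 and 3 again at the ends. The array lists for this probe a transcript that it also lists for both ACTG1 probes, so the near-identical actin messages may not be separated by it; it correlated with the brighter ACTG1 probe at 0.84 over 24 arrays. A second bright ACTB probe, A_70_P056796, correlated with the first at 0.46 and also had its highest group mean, 4.95 ± 0.58 (SD, n = 4), in the newborn aorta.

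The other 2 ACTB probes were dim and went their own way. A_70_P030531 was well above background on the 12 arrays with a detection limit above 1.5 and on no other; within each group that held both kinds, its level was higher on these arrays by 3.04 to 4.13. In the newborn ductus, where no array had such a limit, it was not well above background on any array. A_70_P039446 was higher on the same arrays by 1.08 to 3.01. The corresponding differences of the brightest ACTB probe were between -0.37 and 0.10, and those of the brighter ACTG1 probe between -0.14 and 0.10. Other bright probes were lower on these arrays: MYLK in all 5 groups (-1.69 to -0.29), MYL6 in all 5 (-0.50 to -0.04), CNN1 in 4 of 5 (-0.46 to 0.06) and A_70_P056796 in 4 of 5 (-0.78 to 0.13), from 1 to 3 arrays on each side.

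**Figure D2:**
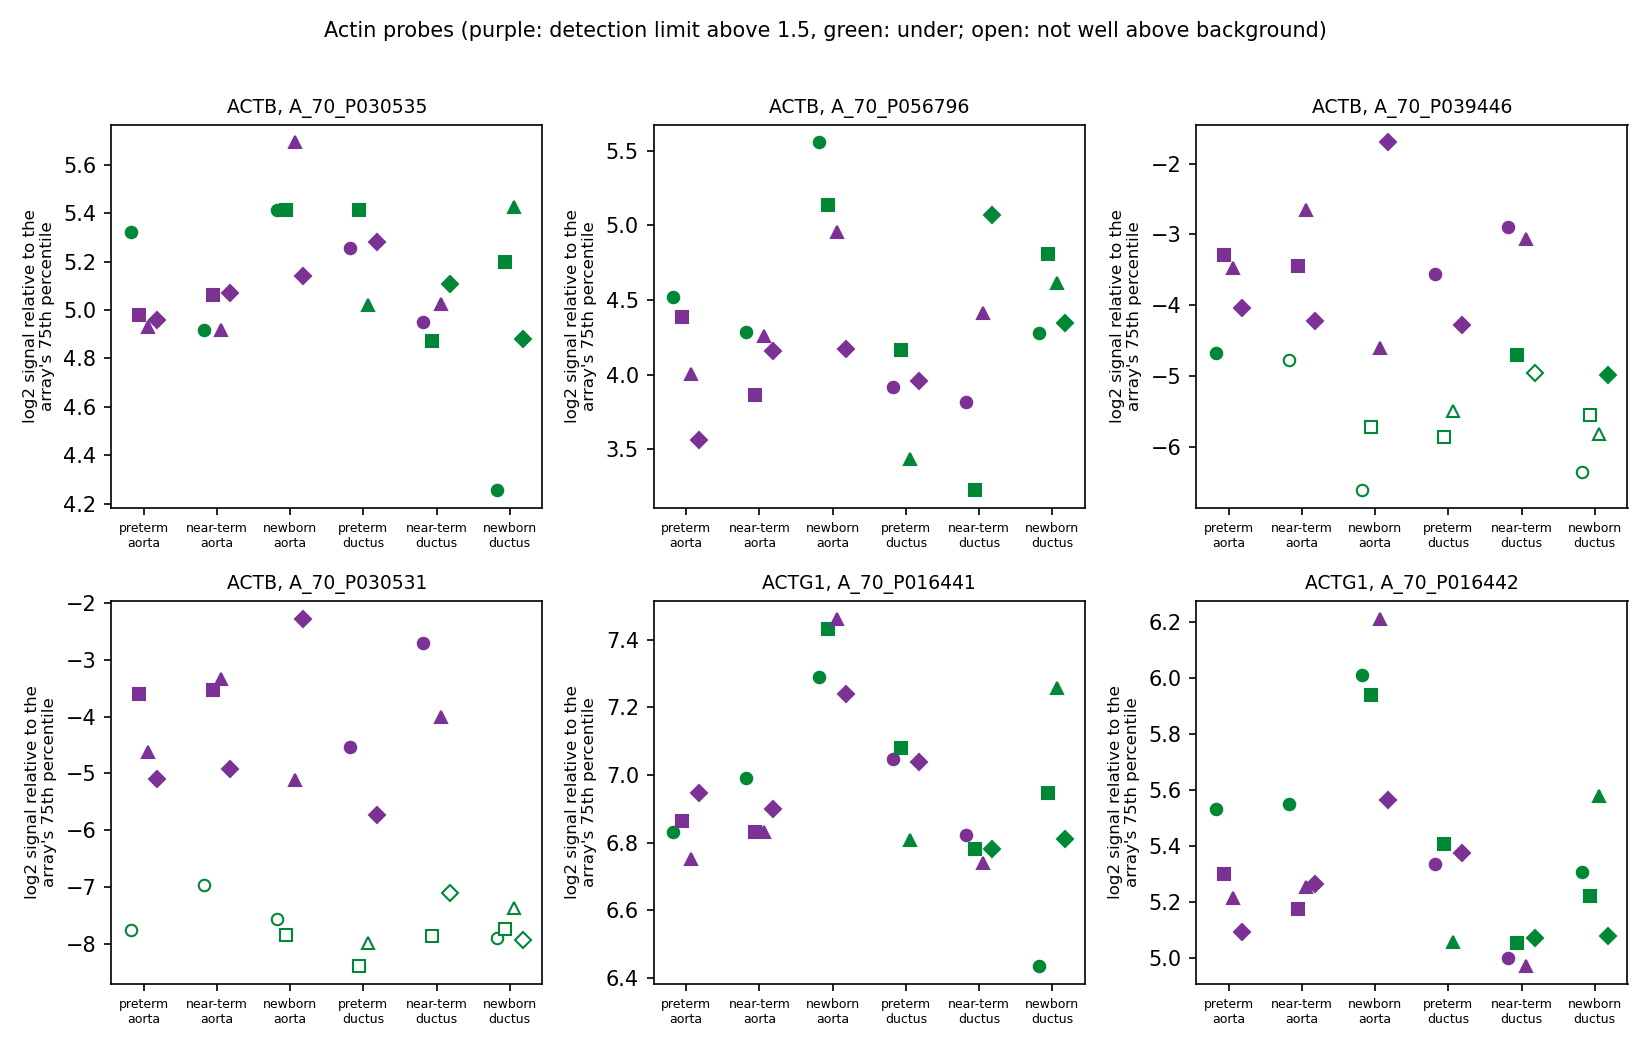
Log2 signal relative to the array's 75th percentile (vertical axis) for the 4 ACTB and 2 ACTG1 probes in the 6 groups (horizontal axis); circles, squares, triangles and diamonds are replicates 1 to 4, purple marks arrays with a spike-in detection limit above 1.5, green those under it, and open symbols spots not well above background. The 2 dim ACTB probes are high where the symbols are purple, whereas all newborn aorta arrays of the brighter ACTG1 probe (7.24 to 7.46) lie above both fetal aorta groups whatever their colour.

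The ductus was compared with the aorta at each stage. Before birth CNN1 had a higher mean in the ductus than in the aorta, without being called. The difference was 0.58 ± 0.20 preterm (1.49-fold, limma adjusted p = 0.259) and 0.82 ± 0.21 near term (1.76-fold, limma adjusted p = 0.0781). All ductus arrays lay above all aorta arrays at both stages, and neither difference passed the adjusted threshold of 0.05. In the newborn the difference was -0.11 ± 0.20 (adjusted p = 0.703) and the arrays overlapped. No member was called in the preterm comparison, in which limma called 0.707% of 13997 tested probes and 8.41% did not overlap, nor in the near-term comparison, with 1.15% called and 6.35% not overlapping; at an unadjusted p under 0.05 CNN1 was the 1 gene of 6 at each stage, beside 11% of all probes preterm and 7.87% near term. ACTG1 also did not overlap near term, being lower in the ductus on each of its 2 probes (-0.11 ± 0.14 on the brighter and -0.29 ± 0.15 on the other); with quantile scaling the brighter was at 0.01. The median difference of the 6 genes was 0.17 preterm and 0.30 near term, beside -0.20 and -0.12 for all tested probes. With array weights, which count variable arrays less, CNN1 passed at both stages (adjusted p = 0.0322 and 0.00206). Near term the largest weights were those of aorta replicate 2 (5.55) and ductus replicate 3 (3.35). Near term CNN1 also passed with normexp (0.0382), with quantile scaling (0.0277), without near-term ductus replicate 1 (0.0424) and with the faulty spot kept (0.0291). Apart from leaving out single arrays of the groups compared, CNN1 was called in 1 of 13 alternative fits preterm and in 5 of 14 near term. With single arrays left out it was called in 0 of 8 and 1 of 8. The summed linear level of 5 fibroblast markers, which is led by the brightest of them, did not overlap between the fetal vessels. It was 70.2 to 89.3 in the ductus against 46.1 to 67.7 in the aorta preterm, and 57.4 to 82.2 against 26.6 to 46.1 near term. None of the 5 was called, and their median differences had the opposite sign, at -0.50 and -0.33. The part of these markers in the CNN1 values was not tested.

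MYLK and PPP1R12A did not separate the vessels before birth once all arrays were used. Their preterm differences were -0.18 ± 0.57 and -0.20 ± 0.61. Without preterm ductus replicate 4 they were 0.65 ± 0.37 and 0.62 ± 0.45, so that their sign turned without this array, and neither passed in either fit (adjusted p = 0.897 and 0.895 with it, 0.57 and 0.603 without it). PPP1R12A also turned, to 0.05, without preterm aorta replicate 2. The near-term differences of the 5 genes other than CNN1 lay within 2 SE of 0 in the fit of all arrays, the largest being that of MYLK at 0.79 ± 0.57. That array also widens the pooled spread here: without it the MYLK difference was 0.79 ± 0.34 (adjusted p = 0.492).

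In the newborn, ACTG1 was lower in the ductus than in the aorta. The difference was -0.49 ± 0.14 (1.41-fold, limma adjusted p = 0.0257) on the brighter probe and -0.63 ± 0.15 (1.55-fold, adjusted p = 0.0105) on the other, with 3 of 4 ductus arrays below all aorta arrays on the brighter probe. It was the 1 gene of 6 called, where 10.1% of all tested probes were called (4.97% lower in the ductus) and 20.1% did not overlap, and the median of all probes was -0.28. ACTB had a difference of -0.47 ± 0.19 (adjusted p = 0.117), which passed without newborn ductus replicate 3 (0.0452). The other 4 genes lay within 2 SE of 0, from -0.27 to 0.04. The ACTG1 call was lost without newborn ductus replicate 1 or 4 or newborn aorta replicate 3 (adjusted p = 0.101, 0.0658 and 0.0748) with normexp, quantile or median scaling (0.111, 0.0683 and 0.47), and in a fit of the 2 groups alone (0.186). All newborn ductus arrays had a detection limit under 1.5; over the arrays of that kind alone the difference was -0.50 and was not called (0.244).

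Markers of other cell types also differed between the newborn vessels, and their part in the ACTG1 difference was not tested. Of 6 endothelial markers measured, NOS3 and SELP were called higher in the ductus (summed linear level 2.234 to 3.097 over the ductus arrays against 0.616 to 1.53 in the aorta). Of 5 fibroblast markers, DCN and C3 were higher (49.3 to 77.9 against 16.1 to 33.4), and of 9 leukocyte markers CD86 and CXCR4 (2.37 to 3.33 against 2.04 to 2.73). Of 5 fat cell markers FABP4 was lower (0.761 to 1.78 against 3.61 to 7.46). The medians of these lists were 0.67 (endothelial), 0.65 (fibroblast), 0.19 (leukocyte) and -1.78 (fat cell). Over all tested probes the median was -0.28 and 10.1% were called. Of 7 tested markers of heart and skeletal muscle none was called, and MYH1, MYH2, MYH7, MYOD1 and MYOG were not well above background on any newborn ductus array. The 2 red cell markers and the 1 nerve marker measured were called in no comparison.

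From 97 to 136 days of gestation, all 4 contractile genes had higher means in both vessels. In the ductus the differences were 1.87 ± 0.57 for MYLK (3.66-fold, adjusted p = 0.192), 0.56 ± 0.20 for CNN1 (1.47-fold, 0.296) and 1.26 ± 0.61 for PPP1R12A (0.444). In the aorta the difference of MYL6 was 0.46 ± 0.19 (1.37-fold, 0.395) and that of MYLK 0.90 ± 0.57. CNN1, MYLK and MYL6 did not overlap between the stages in the ductus or in the aorta, that is 3 of 6 genes each, beside 5.99 and 9.02% of all tested probes. For CNN1 in the aorta this rests on 3 near-term arrays, and the faulty spot, if kept (5.08), would make the stages overlap. None of these differences was called by limma, which called 0.314% of probes in the ductus and 0.493% in the aorta; at an unadjusted p under 0.05 the genes were CNN1 and MYLK in the ductus and MYL6 in the aorta, beside 11.3 and 10.4% of all probes. The medians of the 6 genes were 0.44 and 0.39, beside 0.22 and 0.13 for all tested probes. The actins went the other way in the ductus, at -0.25 ± 0.19 for ACTB and -0.21 ± 0.14 for ACTG1, within 2 SE of 0, and ACTB was at 0.54 when its 4 probes were averaged.

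The size of the MYLK difference in the ductus rested on a single array. Without preterm ductus replicate 4 it was 1.04 ± 0.37 (adjusted p = 0.405), and that of PPP1R12A was 0.44 ± 0.45. The 3 remaining preterm arrays lay between 5.19 and 5.29, below the lowest near-term array at 5.92. With array weights MYLK and CNN1 passed in the ductus (1.37, adjusted p = 0.0164, and 0.54, adjusted p = 0.039).

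After birth the 2 vessels were compared with their near-term state separately. In the aorta CNN1 rose by 0.83 ± 0.21 (1.77-fold, limma adjusted p = 0.0264) and ACTG1 rose by 0.47 ± 0.14 (1.38-fold, adjusted p = 0.0462), with 0.62 ± 0.15 (1.54-fold, adjusted p = 0.0172) on its second probe. These were 2 of 6 genes, beside 6.44% of all tested probes called (3.07% higher), and all newborn arrays lay above all near-term arrays for CNN1, ACTG1 and ACTB, beside 11.3% of probes without overlap. The ACTB difference was 0.42 ± 0.19 (adjusted p = 0.216), and it was -0.17 when all 4 ACTB probes were averaged. MYLK, MYL6 and PPP1R12A lay within 2 SE of 0, from -0.51 to 0.27. The 6 genes had a median of 0.35, while that of all tested probes was -0.24. The CNN1 value rests on 3 near-term arrays.

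These calls were near the threshold. The ACTG1 call was lost when any of the 8 arrays except newborn aorta replicate 4 was left out (adjusted p from 0.0603 to 0.112), and the CNN1 call without near-term aorta replicate 1 or 2 or newborn aorta replicate 1, 2 or 3 (0.0617 to 0.0899). Without newborn aorta replicate 4, which was the lowest of its group for 5 of the 6 genes, CNN1 rose by 1.01 ± 0.20 (adjusted p = 0.00423). Among arrays with a detection limit under 1.5 the differences were 1.10 for CNN1 and 0.37 for ACTG1 (adjusted p = 0.0797 and 0.525), and among those above it 0.57 and 0.50 (0.546 and 0.311), none of them called. Both calls were also lost with median centring (0.246 and 0.224) and in a fit of the 2 groups alone (0.239 and 0.241), and that of ACTG1 with normexp (0.0552), no filter (0.053) and a term for the limit (0.0696). Of the markers of other cell types, KDR and FBLN1 were lower and CD14 and FABP4 higher in the newborn aorta than near term; over the arrays the summed level of the 6 endothelial markers was 0.616 to 1.53 against 0.763 to 1.82, that of the 5 fibroblast markers 16.1 to 33.4 against 26.6 to 46.1, that of the 9 leukocyte markers 2.04 to 2.73 against 1.77 to 3.71, and that of the 5 fat cell markers 3.61 to 7.46 against 1.09 to 14.0. The medians of these lists were -0.57, -0.45, -0.56 and -0.25, beside -0.24 for all probes. The leukocyte and fat cell medians were thus below 0 although CD14 and FABP4 were higher. The part of these markers in the aortic differences was not tested.

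In the ductus none of the 6 genes was called after birth, where limma called 10.8% of all tested probes, and none had an unadjusted p under 0.05, beside 33.8% of probes. In the fit of all arrays the 6 differences lay within 2 SE of 0. When preterm ductus replicate 4, which is in neither group but enters the pooled spread, was left out, the differences of MYLK (-0.80 ± 0.34, adjusted p = 0.123) and PPP1R12A (-0.99 ± 0.42, 0.119) were beyond 2 SE and still not called. PPP1R12A (-0.99 ± 0.61, adjusted p = 0.238 with all arrays) was the 1 gene of 6 without overlap, beside 22.2% of probes. CNN1 was at -0.11 ± 0.20 (adjusted p = 0.726), with a 95% interval from -0.52 to 0.31. The median of the 6 genes was -0.12, beside -0.31 for all probes. Among markers of other cell types, those called higher in the newborn ductus than near term were SELP, C3, CD14 and FABP4. They were 1 each of 6 endothelial, 5 fibroblast, 9 leukocyte and 5 fat cell markers. The medians of these lists were 0.24, -0.32, 0.25 and -0.58, so those of the fibroblast and fat cell lists were below 0. Of 7 heart and skeletal muscle markers MB was called lower, with a list median of -2.24. The 7 were dim, with a summed level of 0.09 to 0.11 in the newborn ductus against 0.17 to 1.58 near term. Detection limits above 1.5 occurred on 2 arrays of the near-term ductus and 0 of the newborn ductus, and their part in this fall was not tested. The part of all these markers of other cell types in the values of the 6 genes was not tested either.

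The difference between the vessels in these changes was tested directly. For birth, the change of CNN1 in the ductus minus that in the aorta was -0.93 ± 0.29, with a 95% interval from -1.54 to -0.32 before adjustment and an adjusted p of 0.29; it passed with array weights (-1.12, 0.035). None of the 6 genes was called, where 0.393% of probes were, and CNN1 was the 1 gene of 6 with an unadjusted p under 0.05, beside 7.71% of probes. For maturation none of the 6 genes and 0% of probes were called; at an unadjusted p under 0.05 there were 0 of the 6 genes and 224 probes. The rise of CNN1 and ACTG1 in the aorta is thus not shown to differ from the change in the ductus.

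**Figure D3:**
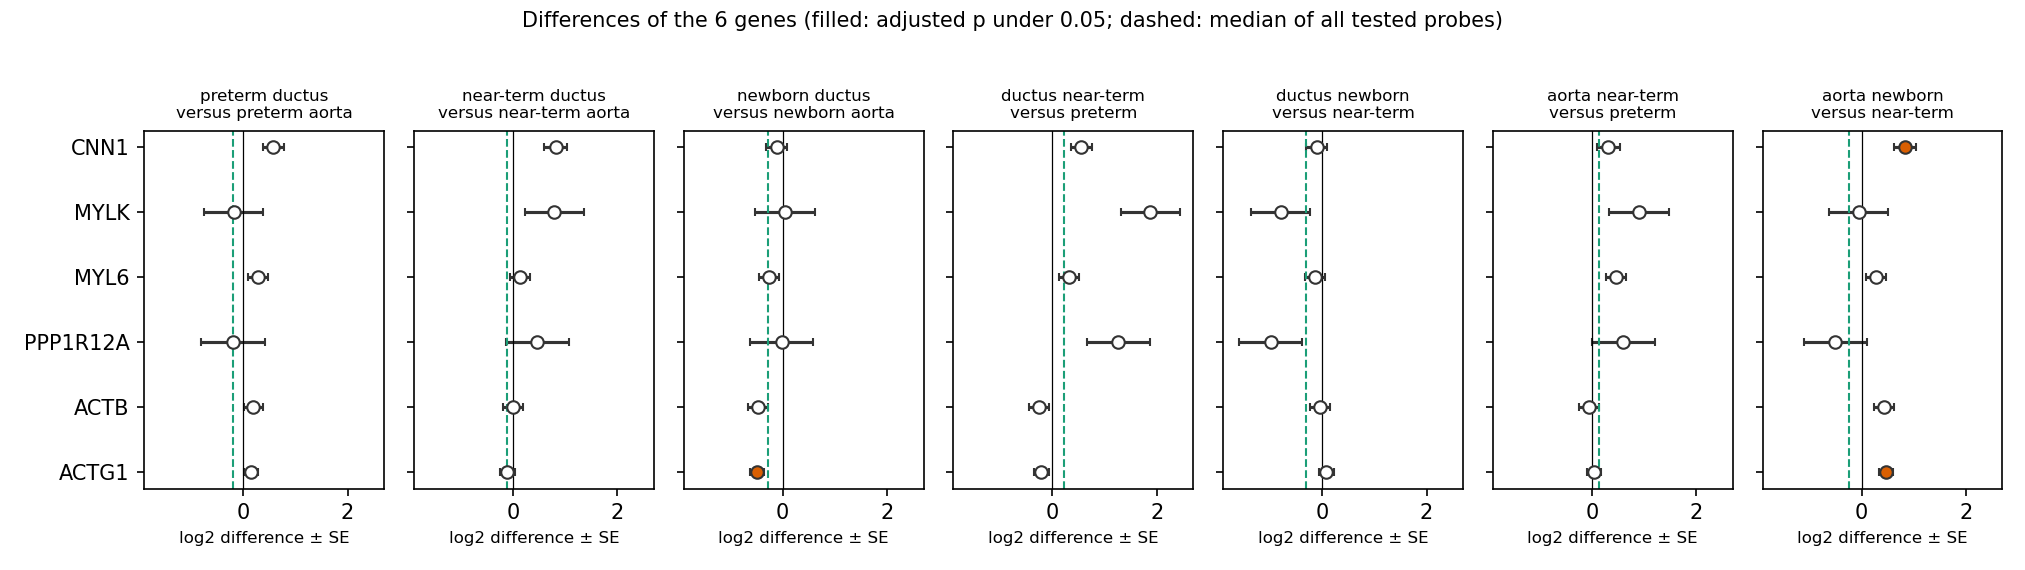
Log2 differences with standard errors (horizontal axes) of the 6 genes in the 7 comparisons of 2 groups; filled points passed an adjusted p of 0.05 in limma, and the dashed line is the median difference of all tested probes. The 3 filled points are ACTG1 in newborn ductus versus newborn aorta (-0.49) and CNN1 (0.83) and ACTG1 (0.47) in the aorta after birth; the long bars of MYLK and PPP1R12A include the preterm ductus array that stood apart.

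Differences between genes on the same array do not change when a constant is subtracted per array, as here or with median centring. Set to 0 at its mean in the preterm aorta, the log2 ratio of CNN1 to ACTG1 ran from -0.30 to 0.19 in the preterm aorta and from 0.13 to 0.38 in the near-term aorta. It ran from 0.22 to 0.70 in the preterm ductus and from 0.77 to 1.40 in the near-term ductus. In the newborn it ran from 0.19 to 0.98 in the aorta and from 0.58 to 1.33 in the ductus. The ductus arrays lay above the aorta arrays in this ratio at both fetal stages, and the vessels overlapped in the newborn. The ratio of CNN1 to ACTB gave the same picture. That of CNN1 to MYL6 separated the vessels near term but overlapped preterm (-0.28 to 0.53 in the aorta, 0.20 to 0.48 in the ductus). That of CNN1 to MYLK overlapped at both fetal stages (near term -1.21 to -0.20 in the aorta, -1.06 to -0.11 in the ductus). The separation therefore depended on the second gene. The ratio of ACTG1 to ACTB stayed within -0.29 to 0.38 on all arrays. That of MYLK to PPP1R12A in the preterm ductus ran from -0.23 to 0.25, replicate 4 included, since both genes were low there.

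Preterm ductus replicate 4 stood apart in a small share of genes. Its MYLK level was 3.29 below the lowest of the other 3 arrays, a gap that 32 of 13896 probes (0.23%) matched or passed, and its PPP1R12A level 3.11 below, matched by 45 probes (0.324%). CNN1 and MYL6 were also lowest there but by 0.13 and 0.01, and ACTB and ACTG1 lay inside the range of the others. Over all probes 2.45% stood apart low on this array by Dixon's test, against 0.439 to 0.633% on the other 3 of its group. It was not the array with the highest share: preterm aorta replicate 1, which also had the most faulty spots (124), stood apart low in 7.84%. Near-term aorta replicate 1, at 2.1%, was below preterm ductus replicate 4. Other named genes with wide gaps, chosen after their values were seen, were C-JUN (5.52 below), EIF3A (3.75), HK1 (3.65) and BCL2 (3.29). Each value is from the gene's probe with the widest gap. That of C-JUN came from a dim probe, at -6.24 on this array. A brighter C-JUN probe, used for the correlations below, was also lowest on this array. It ran from -0.91 there to 2.20 within the group, so its gap was smaller. The array had 83.7% of spots well above background, 30 faulty spots and a detection limit above 1.5; what part these had in the low values was not tested.

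The likeness of other genes to MYLK and PPP1R12A turned on that array. Over 24 arrays the named genes most correlated with MYLK were KIF5B (0.81), EIF3A (0.81) and C-JUN (0.80), among 790 compared. Without preterm ductus replicate 4 they were MYL6 (0.73), CNN1 (0.73 over 22 arrays) and VIM (0.68), and KIF5B was at 0.52. MYLK and PPP1R12A correlated at 0.74 over 24 arrays and at 0.48 over 23. For PPP1R12A the leading genes were M130 (0.89), EIF3A (0.79) and KIF5B (0.77), and M130 stayed first at 0.79 without the array. The arrays share groups, slides and detection limits, so these values are descriptions.

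**Figure D4:**
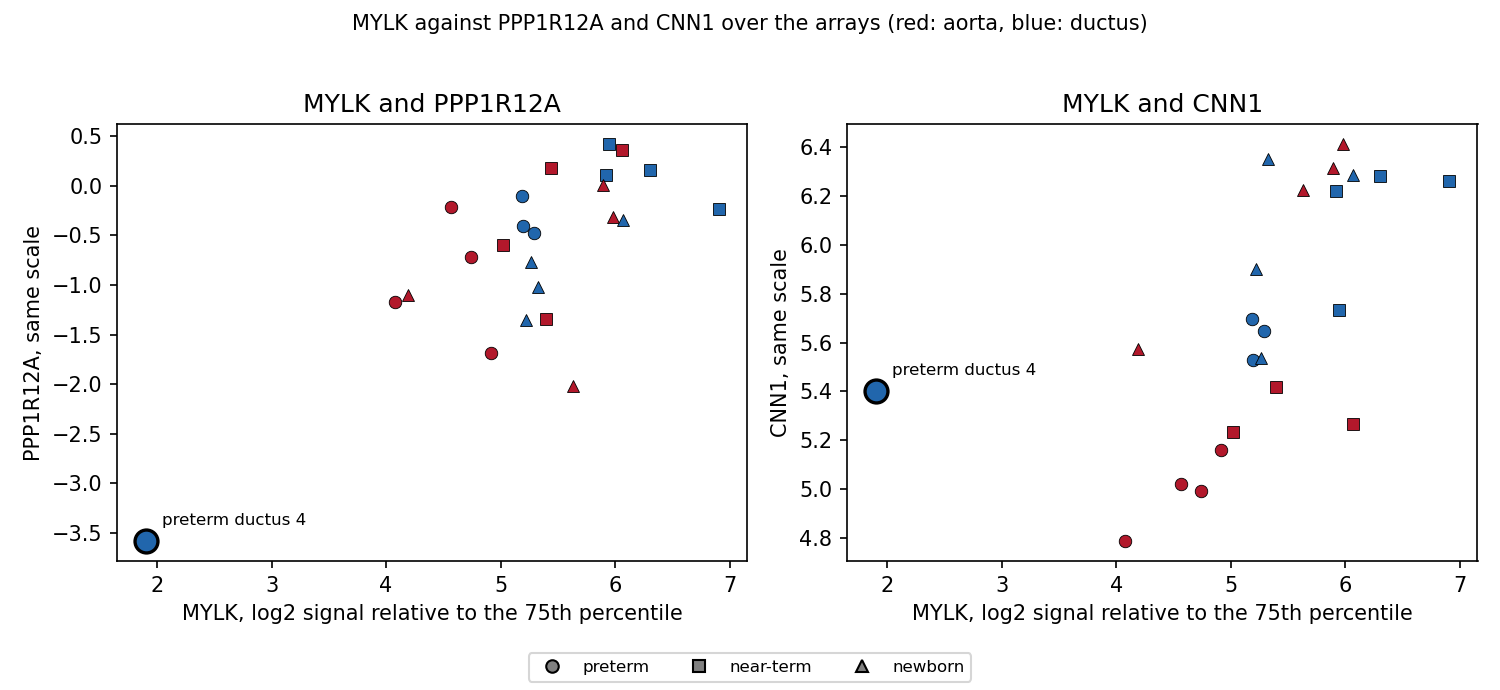
Log2 signal of MYLK (horizontal axes) against PPP1R12A (left) and CNN1 (right), each relative to the array's 75th percentile; points are arrays, red for aorta and blue for ductus, with circles for preterm, squares for near-term and triangles for newborn. Preterm ductus replicate 4, the large circle, is far to the lower left for MYLK and PPP1R12A, and low in MYLK alone on the right, where its CNN1 level (5.40) is 0.13 below the next array of its group.

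For the other members the most correlated named genes were as follows. CNN1 was closest to TNFRSF11B (0.80 over 23 arrays), which encodes osteoprotegerin, a decoy receptor of the TNF receptor family, and then to ETS2 (0.77) and SLC16A1 (0.75). TNFRSF11B had means of -1.15 in the preterm aorta, -0.72 in the near-term aorta, 0.90 in the newborn aorta, -0.14 in the preterm ductus, 0.52 in the near-term ductus and 1.88 in the newborn ductus; unlike CNN1, its newborn ductus lay above all other groups. MYL6 was closest to CNN1 (0.71), then DYNLT3 (0.63) and RGS2 (0.60). ACTB and ACTG1 were closest to each other (0.84), followed for ACTB by KIAA2013 (0.61) and EEF1E1 (0.60), and for ACTG1 by CAPN2 (0.68) and EEF1E1 (0.61).

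Few other genes of the contractile pathway had a named probe. Of 23 further genes of the contractile apparatus 1 was measured, VIM, an intermediate filament protein, and it was called in no comparison; its smallest adjusted p was 0.0694, in newborn ductus versus newborn aorta (0.54 ± 0.19). Of 40 genes that control myosin phosphorylation, CALM2 (calmodulin), PRKG1 (the cyclic GMP-dependent kinase) and GUCY1B1 (a subunit of soluble guanylate cyclase) were measured. CALM2 fell by 0.99 ± 0.29 in the aorta after birth (limma adjusted p = 0.0463), the 1 call among the 3 genes in the 9 comparisons. In that comparison 6.44% of all tested probes were called. The median of the 3 genes there was -0.03, beside -0.24 for all probes. The smallest other p-values were those of GUCY1B1 (-0.80 ± 0.27, adjusted p = 0.0645) and CALM2 (0.79 ± 0.29, 0.086) in newborn ductus versus aorta. Of 37 cytoskeletal genes, ACTR2, a subunit of the actin-nucleating Arp2/3 complex, and CFL1 (cofilin, which severs actin filaments) were measured. ACTR2 was 0.79 ± 0.22 higher in the newborn ductus than in the newborn aorta (adjusted p = 0.0266), the opposite sign to ACTG1. This was 1 of 2 genes, beside 10.1% of all tested probes called there.

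Of 25 regulators of the smooth muscle programme 7 were measured. In newborn ductus versus aorta 2 of 7 were called higher, the immediate early transcription factors FOS (2.68 ± 0.65, adjusted p = 0.0128) and EGR1 (1.59 ± 0.34, 0.00524), beside 10.1% of all probes called, and the list's median was 0.74 beside -0.28 for all probes. In the ductus after birth TGFB1, a growth factor that drives smooth muscle differentiation, rose by 1.02 ± 0.20 (0.00215) and its receptor TGFBR2 by 0.78 ± 0.22 (0.0262), 2 of 7 beside 10.8% of all probes. In the aorta after birth JAG1, a Notch ligand, fell by 0.95 ± 0.25 and PDGFB, a mitogen of smooth muscle, fell by 1.31 ± 0.35 (adjusted p = 0.029 each), 2 of 7 beside 6.44% of all probes, where the list's median was -0.74 beside -0.24. No regulator was called in the other comparisons.

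ACTB is often used with GAPDH as a reference gene, and in the newborn these genes had differences of opposite sign between the vessels. GAPDH, a glycolytic enzyme, was 1.39 ± 0.26 higher in the newborn ductus than in the newborn aorta (2.62-fold, limma adjusted p = 0.00193), whereas ACTB was at -0.47 ± 0.19 and the called ACTG1 at -0.49 ± 0.14. Of the 5 reference genes tested beside the actins, GAPDH was the 1 called in this comparison, and none of B2M, PPIA, RPL13A and EEF1A1 was. None of the 5 was called in the other 8 comparisons, where limma called up to 10.8% of all probes.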

How the data were processed

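Each sample was hybridised to its own single-colour Agilent array (design 019921). Per the file headers, the deposited intensity values came from protocol GE1-v5_95_Feb07 of Agilent's Feature Extraction software (version 9.5.3.1), which subtracts background; no further step by the authors enters here. From the processed intensity deposited for each spot the log2 value was taken and the array's 75th percentile subtracted. Control spots and spots marked non-uniform or population outlier were left out and spots of a probe averaged. Probes well above background on at least 4 of 24 arrays (13997) were fitted with limma 3.58.1 in R 4.3.3, as 6 group means over all arrays, with 9 two-sided comparisons, Benjamini-Hochberg adjustment within each over all probes, and a threshold of 0.05. The fit was also run on simulated data with noise drawn separately for each probe and array. Such data lack the component that arrays of like detection limit share here, so its effect on the calls was not tested by them. The number of arrays limits the precision.

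The members and gene lists were chosen with earlier results of these data known. Named are all member probes; of each list, the genes called or, where none was, those with the smallest p; and, per member, the 3 named genes most correlated with it. Lists cover the contractile apparatus, myosin phosphorylation, cytoskeleton, regulators, reference genes and markers of other cell types. Alternatives were other background correction, scaling, filters, array weights, probe averaging, a replicate block, the detection limit, other sets of arrays and leaving out each array; use of the arrays above the limit alone, and leaving preterm ductus replicate 4 out of the spread of comparisons it is not in, were added after seeing the data.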

Additional observations from a re-analysis of the deposited data

Results flagged for a closer look

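In 11 groups of 4 arrays 1 array stood apart from the other 3 by Dixon's test, which chance gives in about 1 of 20 groups; 71 groups of the member probes were tested, of which 10 had such an array, and the M130 probe gave the other. Preterm ductus replicate 4 was the low array in 5 of them: MYLK at 1.90 and, on its second probe, 0.64; PPP1R12A at -3.59 and, on its second probe, -5.00; and M130 at -2.01. The second MYLK probe was also low on preterm aorta replicate 4 (3.34) and newborn aorta replicate 4 (3.65), and the first was high on newborn ductus replicate 3 (6.06). CNN1 was low on near-term ductus replicate 1 (5.73). ACTB was high on preterm aorta replicate 1 (5.32), and ACTG1 was low on preterm ductus replicate 3 (6.81). The groups tested are not independent, since the 2 MYLK probes correlated at 0.98 and the 2 PPP1R12A probes at 0.86. Over all tested probes, preterm aorta replicate 1 stood apart low in 7.84% and preterm ductus replicate 4 in 2.45%. The count of 10 is therefore not read as an excess over chance.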

How the results depend on the processing

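Of the counts of called genes, 6 moved. In near-term ductus versus aorta 1 gene (CNN1) in place of 0 was called with normexp, quantile scaling, faulty spots kept or array weights. In newborn ductus versus aorta 0 in place of 1 were called with normexp, quantile scaling, median centring, only the groups compared, or only arrays with a limit under 1.5. In the aorta after birth 1 in place of 2 (CNN1) was called with normexp, no filter or a term for the limit, and 0 with median centring, only the groups compared, or only arrays under or above the limit. Array weights also gave 1 gene (CNN1) in the preterm vessels and in the birth change between vessels, and 2 (CNN1, MYLK) in the maturing ductus. Leaving out single arrays gave 0 to 1 in the near-term vessels, 0 to 2 in the newborn vessels and 0 to 2 in the aorta after birth.

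Signs turned for ACTB with its probes averaged (aorta after birth, -0.17; maturing ductus, 0.54), ACTG1 near term with quantile scaling (0.0095), and CNN1 with median centring (newborn vessels, 0.062; ductus after birth, 0.20). Between the preterm vessels MYLK turned with array weights (0.36) and arrays under the limit (0.33), and PPP1R12A with array weights (0.15), arrays under the limit (1.39) and averaged probes (0.044). Over single arrays left out the ranges were -0.48 to 0.65 for MYLK and -0.54 to 0.62 for PPP1R12A there, -0.30 to 0.0485 for CNN1 in the newborn vessels and -0.24 to 0.0554 in the ductus after birth. Of 54 differences 22 turned sign in at least 1 alternative, 21 of them within 2 SE of 0. The causes were not tested.

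The labels do not say whether the same replicate number in the 2 vessels is 1 animal, and a check of the data could not settle it. Deviations from the group means correlated above 0.1 in 6 of 12 same-numbered pairs (-0.59 to 0.82). The first principal component separated arrays by detection limit, and many pairs were on different sides of that limit. These correlations therefore cannot decide for or against a pairing. With the replicate block (correlation 0.18) 1 gene in place of 0, CNN1, was called in the near-term vessels (0.81, limma adjusted p = 0.0255). Slide as a block was not run, since each slide holds 1 stage and it could not be fitted. Dim probes, such as 2 of the 4 for ACTB, limit what the signal over background can show.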
